A study of Mus musculus with 18 samples.

Results

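The synaptic vesicle and exocytosis genes described here are the gene names of the expression table that begin with the family stems Syt, Syn1 to Syn3, Syp, Synpr, Syngr, Synj, Sv2, Vamp, Stx, Stxbp, Snap, Cplx, Rims, Unc13 or Rab3, and whose mean over the 18 libraries was at least 1 FPKM (a read density per transcript length, made comparable between libraries by the number of mapped fragments). The stems Syt, Vamp, Stx, Snap and Rims counted only with a digit after them, and Syn1 to Syn3, Syp and Synpr only as whole names. Of 29942 gene names in the table, 98 matched these stems and 86 reached the minimum, among 13975 genes that did so in all. By role, 76 of the 86 were vesicle or fusion genes. The other 10 matched by their letters alone: 9 are Rab GTPases numbered in the 30s that are not RAB3 proteins, and Synj2bp encodes a protein of the outer mitochondrial membrane. Just inside the minimum lay Rab37 with a mean of 1.01 FPKM and Rab3d with 1.24 FPKM, and just outside it lay Rab32 with 0.814 FPKM and Vamp5 with 0.718 FPKM.

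Neurons release transmitter by fusing vesicles with the presynaptic membrane. A vesicle SNARE protein (VAMP2) zips up with SNAREs of the target membrane (a syntaxin and SNAP25), MUNC13 and RIM prepare the complex, complexins clamp and promote it, and synaptotagmins trigger fusion when calcium enters. In the striatum the release sites belong to cortical and thalamic glutamatergic axons and midbrain dopaminergic axons, whose transcripts are made mostly in cell bodies outside the tissue, and to striatal GABAergic and cholinergic neurons, whose cell bodies and RNA lie within it.

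Striatal tissue of both hemispheres, cut dorsal to the anterior commissure, was taken from 18 mice, siblings of strain 129Sv/Jae S4, in 6 groups of 3. On days 1, 7 and 21, 3 mice per day had been injected intraperitoneally with 0.9% saline and 3 with D-amphetamine hemisulfate, a monoamine-releasing psychostimulant, dissolved in 0.9% saline and given at 10 ml/kg to reach 7 mg/kg daily. The animals were group-housed and matched for age and sex, and neither the age nor the sex is given in the sources used here. The series title names repetitive behaviours induced by the drug as its subject, and the comparison made here is whether vesicle and exocytosis transcripts differed with amphetamine on any day. PolyA RNA was sequenced.

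Absolute depth was unknown. The depth of the libraries relative to the deepest, read from the spacing of low values, ran from 0.652 to 1. It averaged 0.884 over the saline libraries (0.769 to 1) and 0.799 over the amphetamine libraries (0.652 to 0.944). These ranges overlapped, and the difference in mean depth was not tested. Markers of striatal projection neurons were high in all libraries: Ppp1r1b (DARPP-32), for example, ran from 877 to 1330 FPKM. The level of a marker list is the mean log2(FPKM + 1) of its genes. That of 9 striatal markers lay between 8.13 and 8.43, and that of 10 cortical glutamatergic markers between 0.568 and 2.44. Of these cortical genes 0 were at 0 FPKM in every library. In bulk tissue, fewer cells of a type and less RNA per cell cannot be told apart.

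SNAREs were the most abundant role. The 23 SNARE genes summed to 1463 FPKM on average, from 1377 to 1552 between libraries. Snap25, the neuronal SNARE of the target membrane, had the highest mean of all 86 genes at 650.0 FPKM, with a lowest library at 595.2, a median at 662.9 and a highest library at 704.4 FPKM. It made up 81.6% of the summed FPKM of the members named Snap with a number, beside 11.4% for Snap47. Vamp2, the vesicle SNARE of fast release, had a mean of 323.7 FPKM (301.1 to 354.5) and 75.9% of the Vamp total. Stx1a, a syntaxin of the target membrane, had a mean of 12.1 FPKM (9.70 to 19.2). Vamp1, a vesicle SNARE typical of brainstem and spinal neurons, had a mean of 20.7 FPKM and ranged from 9.68 to 31.8 FPKM, so that its spread was wide where that of Vamp2 was narrow.

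The 9 SNARE partners summed to 688.3 FPKM. Both complexins that bind the assembled SNARE complex at most forebrain synapses were abundant: Cplx2 had a mean of 330.3 FPKM (288.1 to 363.7) and 65.3% of the complexin total, and Cplx1 175.4 FPKM (142.5 to 213.8) and 34.7%. Cplx3, a complexin known from retinal ribbon synapses and the cortical subplate, was below the minimum with a mean of 0.552 FPKM and a highest library at 1.53 FPKM.

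Among the 15 synaptotagmins, which summed to 647.9 FPKM, the fast calcium sensor gene Syt1 led with 212.4 FPKM (185.7 to 233.5) and 32.8% of the total. Syt11, which lacks calcium binding, followed with 134.9 FPKM and 20.8%, and Syt4, a dense-core vesicle and activity-linked synaptotagmin, had 71.9 FPKM. Syt2, the fast sensor of hindbrain synapses, had 25.2 FPKM and 3.89% of the total. The lowest Syt1 value lay above the highest Syt2 value, 33.6 FPKM.

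The 8 vesicle membrane genes summed to 533.8 FPKM. Syp (synaptophysin) had a mean of 160.0 FPKM and Synpr (synaptoporin), its relative known from hippocampal mossy fibres, 107.6 FPKM. The 3 SV2 glycoproteins, which are vesicle proteins and receptors for botulinum toxins, were all present: Sv2a held 54.8%, Sv2b 23.3% and Sv2c, the form typical of basal ganglia, 21.8% of their total. The synaptogyrins Syngr1 and Syngr3 had similar means of 61.97 and 60.5 FPKM with overlapping ranges. The phosphoproteins that tether vesicles in reserve, the synapsins, were led by Syn1 with 79.9 FPKM and Syn2 with 75.01 FPKM, and Syn3 had 8.02 FPKM.

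Of the active zone genes, Unc13c had a mean of 32.2 FPKM (53.9% of the MUNC13 total) and Unc13a, the main priming factor of forebrain synapses, 25.5 FPKM (42.7%). Rims2 led the RIM scaffolds with 20.3 FPKM, followed by Rims1 with 16.7 FPKM, and the ranges of the pair overlapped. Rab3a, the GTPase that marks release-ready vesicles, had a mean of 210.2 FPKM (179.9 to 230.7), beside 47.4 FPKM for Rab3c and 6.46 FPKM for Rab3b. Synj1, the phosphatase that uncoats endocytic vesicles, had 40.9 FPKM. In all, 10 members had a mean over 100 FPKM and 29 a mean under 10 FPKM.

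**Figure D1:**
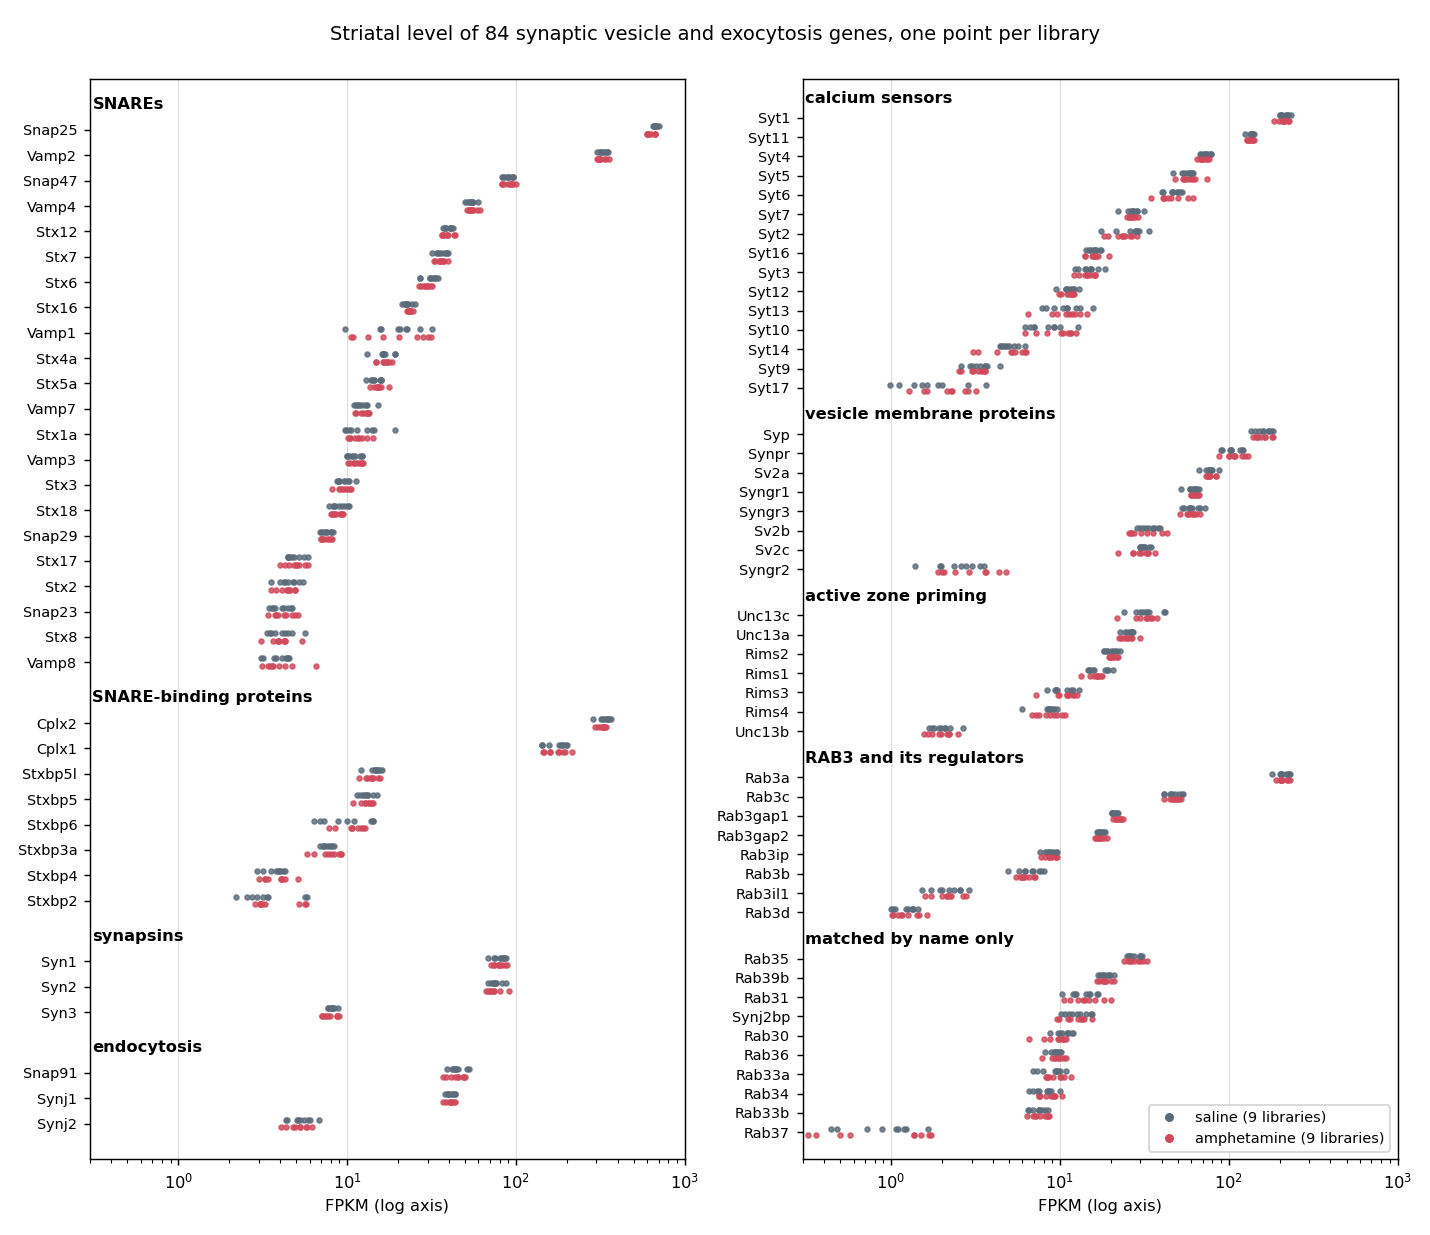
Each point is the FPKM of 1 gene in 1 library on a log axis, with 9 saline libraries above and 9 amphetamine libraries below each gene's line, and 84 genes grouped by role. The levels run from 1.01 FPKM on average for Rab37 to 650.0 FPKM for Snap25.

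Vesicle genes varied little between the 18 animals. Summed over the 86 genes, expression ran from 3944 FPKM in saline replicate 1 of day 1 to 4334 FPKM in saline replicate 3 of day 7, a 1.10-fold span. The FPKM of all genes summed to 533020 to 682270 per library, and the members' share of that sum spanned more widely, from 0.635% to 0.770%. The median coefficient of variation over the 18 libraries was 9.34% for the members and 11.3% for all tested genes, whose median level was 9.08 FPKM beside 15.5 FPKM for the members. It was under 10% for 46 of 86 members and for 5797 of 13975 tested genes. The steadiest members were Syt11 (3.29%), the Golgi syntaxin Stx16 (4.27%) and Rab3gap1, a subunit of the RAB3 GTPase-activating complex (4.49%). The most variable were Rab37 (48.1%), Syt17 (36.8%), Vamp1 (35.2%), Stxbp2 (33.4%) and Syngr2 (32.9%), of which Vamp1 alone had a mean above 10 FPKM. Saline replicate 1 of day 1 held the lowest value for 16 members, more than any other library, and saline replicate 1 of day 21 and amphetamine replicate 3 of day 1 each held the highest value for 12.

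Outside the vesicle genes, an immediate-early gene served as the check of the drug response. Btg2, an antiproliferative gene that neurons switch on with activity, was at 2.23, 1.56 and 2.03 FPKM in the saline animals of day 7 and at 5.79, 9.78 and 8.15 FPKM in the amphetamine animals, with no overlap. Over the 3 days its log2 difference, amphetamine minus saline on the log2(FPKM + 1) scale, was 1.58 ± 0.12 (SE; limma adjusted p = 2.74e-05). Immediate-early genes are classical targets of CREB, which binds the cyclic AMP response element with the letters TGACGTCA. These letters read the same on both strands and were sought in the 250 bases before each gene's start in RefSeq (build GRCm38.p6). They were in 2 of 7 immediate-early promoters searched (Btg2 and Dusp1), in 280 of the 8750 tested genes with an entry (3.2%), and in 1 of 66 members with an entry (1.52%), Syn1. The pair below, both from the minus strand and printed 5′ to 3′ with the element in capitals, shows the element in a gene that rose with the drug and in the vesicle gene that carries it. The Btg2 window is chr1:134079156-134079405 and its element starts 166 bases before the gene's start. The Syn1 window is chrX:20920919-20921168 and its element starts 159 bases before the start.
Btg2: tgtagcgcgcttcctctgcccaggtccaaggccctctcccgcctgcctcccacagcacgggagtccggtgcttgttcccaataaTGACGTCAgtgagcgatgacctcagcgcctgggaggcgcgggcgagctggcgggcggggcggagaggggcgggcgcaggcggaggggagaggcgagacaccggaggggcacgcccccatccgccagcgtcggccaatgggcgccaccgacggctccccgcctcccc
Syn1: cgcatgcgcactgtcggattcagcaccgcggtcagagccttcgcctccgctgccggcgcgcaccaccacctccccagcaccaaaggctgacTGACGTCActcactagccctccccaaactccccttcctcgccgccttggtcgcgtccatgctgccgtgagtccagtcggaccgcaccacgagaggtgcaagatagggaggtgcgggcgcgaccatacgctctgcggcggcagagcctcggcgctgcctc
A match of letters is a description and not a binding site. Syn1 itself was at 68.7, 87.2 and 80.8 FPKM in the saline animals of day 1 and at 86.7, 79.4 and 82.8 FPKM in the amphetamine animals, which overlapped. Its log2 difference over the 3 days was −0.0067 ± 0.05 (SE; 95% interval −0.12 to 0.10; limma adjusted p = 0.999).

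Averaged over the 3 days, 0 of 86 vesicle and exocytosis genes passed the threshold (limma adjusted p under 0.05), where 0.122% of all tested genes did. At an unadjusted p under 0.05 there were 3 members, 3.49% of them, beside 5.36% of all tested genes. The median log2 difference of the members was −0.0082, with 38 of 86 higher, and that of all genes was 0.0080, with 55.6% higher. Without the 3 libraries of highest cortical level the members' median was 0.0023, beside 0.012. For 74 of 86 members (86%) the 95% interval of the difference lay within 1.2-fold in either direction on the log2(FPKM + 1) scale, as it did for 75.9% of all tested genes. This scale narrows the intervals of low genes, and 24 of the 29 members under 10 FPKM and 50 of the other 57 were within the bound. On single days, where 3 animals met 3, fewer members were within it: 30 on day 1, 42 on day 7 and 33 on day 21, beside 29.4%, 34.7% and 32% of all tested genes. The widest of the 86 intervals over the 3 days was that of Vamp1, −0.50 to 0.44 on the log2 scale. A missed threshold does not show that a gene was alike in both treatments, and these intervals give the sizes that the data leave possible.

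Snap25 had the smallest p of the members. On day 7 its values were 671.3, 661.5 and 670.8 FPKM with saline and 600.7, 595.2 and 617.7 FPKM with amphetamine, so that all 3 amphetamine animals lay below all 3 saline animals. On day 1 the groups were at 649.3, 664.3 and 667.5 against 635.5, 664.7 and 604.0 FPKM, and on day 21 at 704.4, 657.7 and 685.4 against 610.0, 670.6 and 669.0 FPKM, and both days overlapped. Its log2 difference over the 3 days was −0.091 ± 0.031 (SE), a ratio of 0.939 with a 95% interval of −0.16 to −0.025 on the log2 scale, and it did not pass (limma adjusted p = 0.714). Of its partners in the fusion complex, Vamp2 had a difference of −0.029 ± 0.038 and Stx1a one of −0.069 ± 0.079 (SE), each with a limma adjusted p of 0.999.

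Rab3gap1 had the next smallest p and lay higher with amphetamine by 0.068 ± 0.025 (SE; limma adjusted p = 0.797). Its saline values were 22.2, 21.2 and 21.7 FPKM on day 1 against 22.7, 23.7 and 23.1 FPKM with amphetamine, which did not overlap, and on days 7 and 21 the groups overlapped. Rab30, a Golgi Rab GTPase matched by its letters, was next with −0.16 ± 0.072 (limma adjusted p = 0.930). Of the other genes central to release, Syt1 differed by −0.030 ± 0.036, Cplx1 by −0.016 ± 0.082, Cplx2 by −0.044 ± 0.042, Rab3a by −0.0028 ± 0.045, Syp by −0.024 ± 0.058, Sv2a by 0.011 ± 0.044, Unc13a by −0.029 ± 0.037 and Synj1 by −0.0084 ± 0.037. Each of these 8 differences was smaller than or close to its standard error.

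By role, the members' medians over the 3 days stayed near 0. Of 23 SNARE genes 10 were higher and 13 lower (median −0.013), of 9 SNARE partners 6 and 3 (0.0082), of 15 synaptotagmins 4 and 11 (−0.021), of 8 vesicle membrane genes 4 and 4 (−0.0062), of 7 active zone genes 3 and 4 (−0.015), and of 8 RAB3 genes and regulators 4 and 4 (0.0051). All 3 synapsins and all 3 endocytosis genes were below 0, with medians of −0.039 and −0.019. None of these genes passed the threshold, and the directions of single genes are given as signs of estimates only. The same direction on all 3 days was seen for 8 members that were higher and 4 that were lower, 9.3% and 4.65% of the members, beside 13% and 8.04% of all tested genes.

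**Figure D2:**
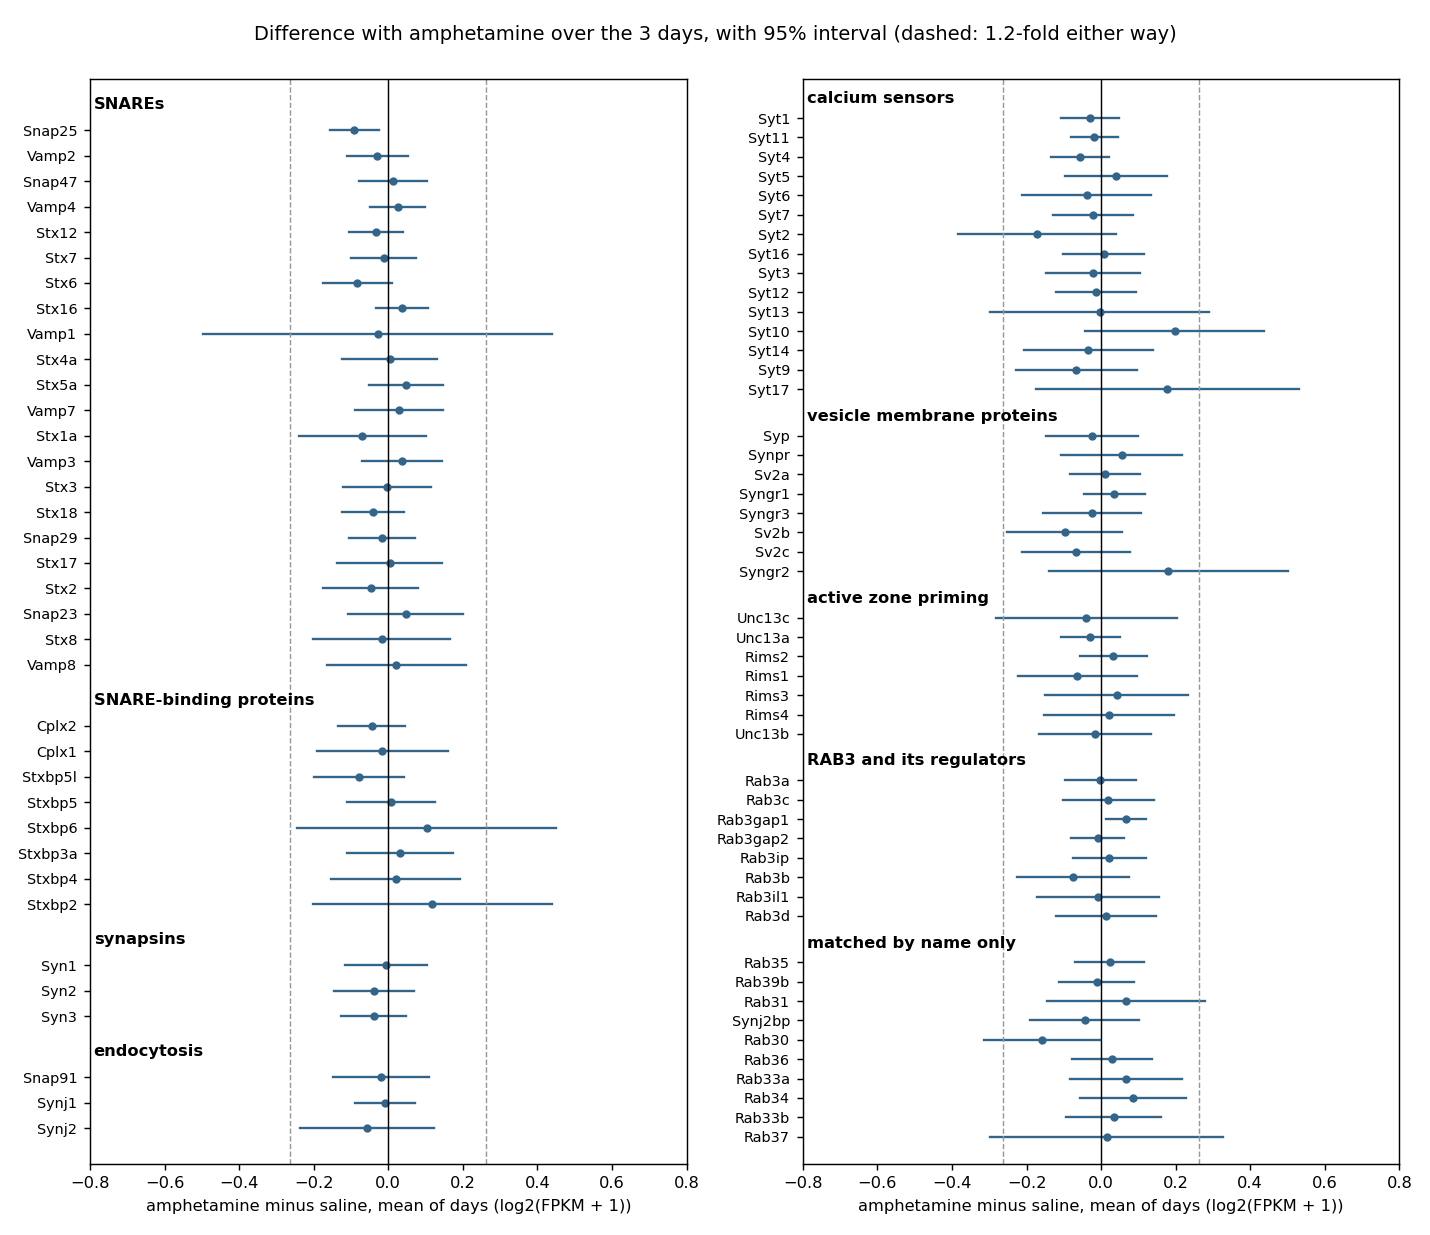
Each point is the log2 difference, amphetamine minus saline, of 1 gene averaged over the 3 days on the log2(FPKM + 1) scale, and its line is the 95% interval from limma over 18 libraries. The intervals of 72 of the 84 genes drawn lie between the dashed lines at 1.2-fold. The interval of Snap25, −0.16 to −0.025, lies below 0 and is not adjusted for the number of genes. Snap25 had the smallest p of the 86 members and did not pass the threshold (limma adjusted p = 0.714).

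On day 1, 0 members passed (0.00716% of all tested genes, which is 1 gene), and 6 had an unadjusted p under 0.05, where 7.25% of all genes did. Members were higher in 52 of 86 cases with a median of 0.026, beside 64% and 0.047 over all genes. This direction depended on the scaling: with median-of-ratios scaling 34 of 86 were higher and with quantile normalization 36 of 86. The members' medians were then −0.020 and −0.021, beside 0 and 0.00064 over all genes. The members' median lay below that of all genes with each scaling. In 8 members the groups of 3 did not overlap (10.6% of all tested genes did not): Rab35, Rab3gap1, Stxbp3a, Rab3il1, Syt17 and Rab37 were higher with amphetamine (6 members, 7.73% of all tested genes), and Syt1 and Sv2b lower (2 members, 2.91%). Rab37 reached the minimum of 1 FPKM only through its highest group, amphetamine on day 1, since its mean over the other 5 groups was 0.892 FPKM, so that its place among the 6 is partly set by the filter. The level of 5 choroid plexus markers, all detected, was also apart on this day, at 1.22 to 1.59 with saline and 1.79 to 2.57 with amphetamine (summed FPKM of 10.7 to 19.9 and 26.6 to 102), and its part in the day 1 differences was not tested beyond the slopes given further on.

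Rab35, a GTPase of endosomal recycling that matched by its letters, had the smallest p of day 1. It was at 26.5, 25.6 and 25.6 FPKM with saline and at 30.9, 28.8 and 32.8 FPKM with amphetamine. The difference was 0.24 ± 0.075 (SE; limma adjusted p = 0.655). On day 21 the order turned, with 27.4, 29.9 and 30.8 FPKM for saline above 24.1, 26.3 and 26.1 FPKM for amphetamine, a difference of −0.20 ± 0.075 (limma adjusted p = 0.869).

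Sv2b, the SV2 form of glutamatergic forebrain terminals, was at 33.8, 38.3 and 32.4 FPKM in the saline animals of day 1 and at 25.5, 27.5 and 26.4 FPKM in the amphetamine animals. All 3 treated animals lay below the controls, and the difference was −0.38 ± 0.12 (SE), a ratio of 0.769 (limma adjusted p = 0.666). Sv2c, its basal ganglia relative, was at 31.0, 34.5 and 31.8 against 26.9, 32.3 and 22.2 FPKM, overlapping, with −0.26 ± 0.12 (limma adjusted p = 0.674), and Sv2a differed by 0.085 ± 0.076 (limma adjusted p = 0.743). The cortical marker level had a lower mean with amphetamine on this day and overlapped, from 0.969 to 1.92 with saline and from 0.691 to 1.52 with amphetamine, with summed FPKM of the 10 markers of 12.9 to 47.7 and 7.60 to 27.5. The Sv2b difference was −0.28 with that level as a covariate (limma adjusted p = 0.940). Whether cortical tissue had a part in the Sv2b difference was not tested. On the other days Sv2b overlapped between treatments, and its differences were −0.040 ± 0.12 on day 7 and 0.12 ± 0.12 on day 21.

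On day 7, 0 members passed (0.0215% of all tested genes), and 5 had an unadjusted p under 0.05 (4.92% of all genes). The median was 0.0054 with 47 of 86 higher, beside 0.0036 and 51.5% over all genes. The groups did not overlap for 7 members (10.3% of all tested genes), of which Syt10 and Synj2bp were higher and Snap25, Cplx2, Syt4, Stx12 and Stx6 lower with amphetamine (2 members beside 5.45% of all tested genes, and 5 beside 4.86%). Syt10, a synaptotagmin linked to secretion of IGF-1 in olfactory neurons, was at 6.66, 6.20 and 7.00 FPKM with saline and 7.23, 12.4 and 10.4 FPKM with amphetamine. The lowest treated animal lay close to the highest control, and the difference was 0.50 ± 0.20 (SE; limma adjusted p = 0.892). Syt4 was at 78.0, 72.4 and 73.2 FPKM against 69.2, 65.1 and 67.7 FPKM, a difference of −0.15 ± 0.062 (SE; limma adjusted p = 0.952).

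On day 21, 0 members passed (0% of all tested genes), and 4 members had an unadjusted p under 0.05 (5.5% of all genes). Here 33 of 86 were higher with a median of −0.036, beside 42.7% and −0.020 over all genes. The size of this median depended on the scaling: it was −0.015 with median-of-ratios scaling (38 of 86 higher), −0.0093 with quantile normalization (41 of 86) and −0.057 with the relative depth as a covariate (28 of 86), beside −0.0014, 0.00093 and −0.039 over all genes. With the depth covariate 0 members passed on this day, and the smallest limma adjusted p of a member was 0.272, for Rab3b. Groups were apart for 9 members (12.3% of all tested genes): Syt10 and Rab34 higher, and Rab35, Synj2bp, Stx1a, Stx18, Syn3, Rab3b and Rab3il1 lower with amphetamine (2 members beside 4.76% of all tested genes, and 7 beside 7.51%). Synj2bp, the mitochondrial protein gene that shares only letters with the synaptojanins, had the smallest p, with 14.3, 12.6 and 15.6 FPKM for saline and 9.88, 9.56 and 11.4 FPKM for amphetamine. Its difference was −0.42 ± 0.12 (SE), a ratio of 0.746 (limma adjusted p = 0.769). Syn3, the synapsin tied to early neuronal development, was at 8.14, 8.81 and 8.004 FPKM against 7.73, 7.10 and 7.08 FPKM, a difference of −0.17 ± 0.070 (limma adjusted p = 0.869). Syt10 was again above the controls, at 9.22, 7.00 and 8.50 against 10.1, 11.4 and 11.2 FPKM, while on day 1 its groups overlapped at 12.7, 9.18 and 9.96 against 11.7, 8.37 and 6.17 FPKM.

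**Figure D3:**
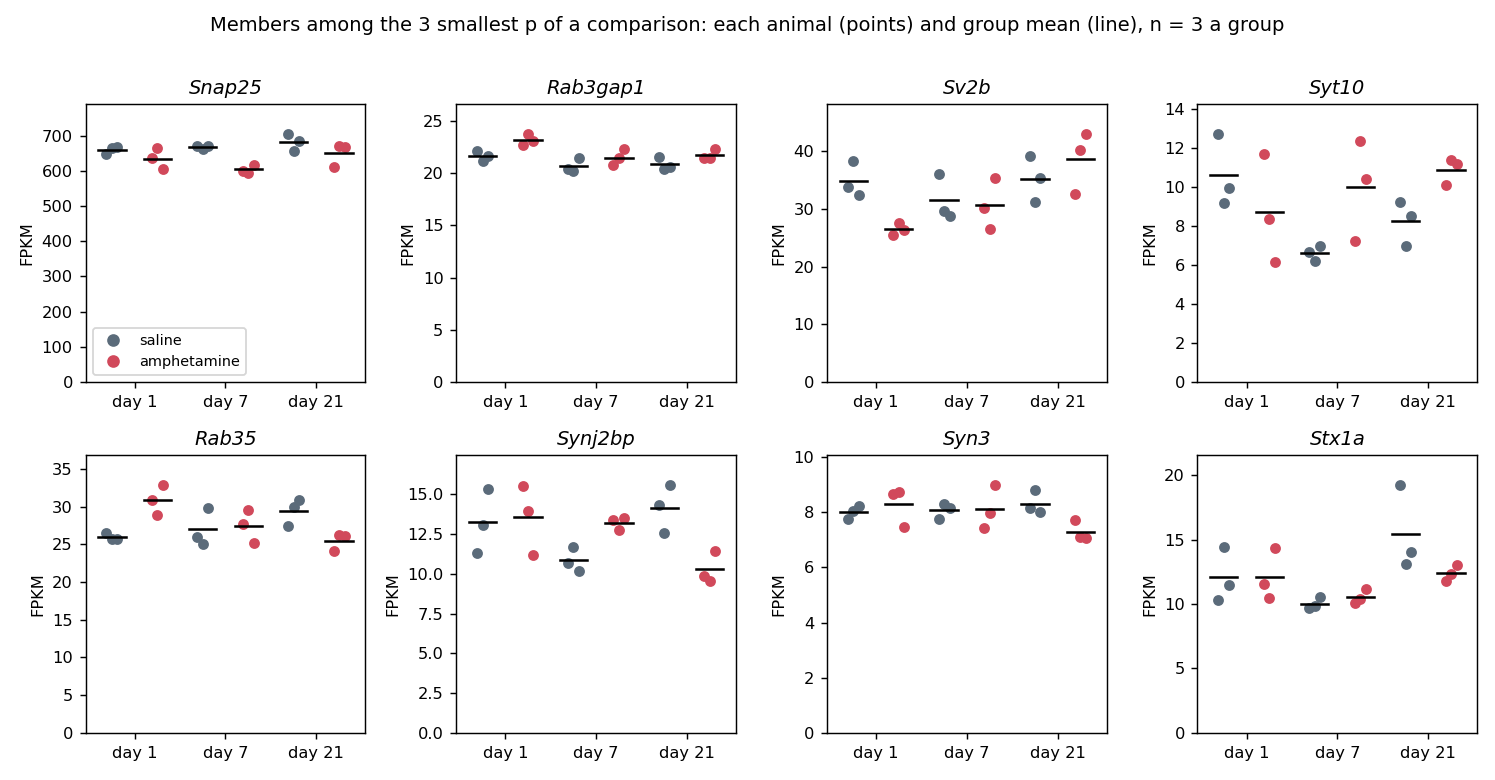
Points are the FPKM of single animals, lines are group means of 3 animals, and each panel is a member with one of the 3 smallest p of a comparison. Synj2bp with amphetamine lies above saline on day 7 and below it on day 21, and Sv2b with amphetamine lies at 25.5 to 27.5 FPKM on day 1 and at 32.6 to 43.0 FPKM on day 21.

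Whether the drug difference itself changed between days was tested as a treatment by day interaction, which 0 members and 0% of all tested genes passed. An unadjusted p under 0.05 was found for 5 members, where 6.25% of all genes had one. The 3 members with the smallest p were Synj2bp, with differences of 0.029, 0.26 and −0.42 on days 1, 7 and 21, Rab35, with 0.24, 0.026 and −0.20, and Syt10, with −0.28, 0.50 and 0.37, each with a limma adjusted p of 0.773 for the interaction.

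Levels were also compared between days within a treatment. In saline animals 0 members passed (0.00716% of all tested genes) and 8 had an unadjusted p under 0.05 (5.95% of all genes). Stx1a had the smallest p, at 10.3, 14.4 and 11.48 FPKM on day 1, 9.70, 9.83 and 10.5 FPKM on day 7 and 19.2, 13.1 and 14.02 FPKM on day 21 (limma adjusted p = 0.740). Its highest value belonged to saline replicate 1 of day 21. That library held the highest value for 12 members and also had the highest cortical marker level, 2.44. The unadjusted limma p of Stx1a over the days was 0.00384. With the cortical level as a covariate it was 0.0457 (limma adjusted p = 0.808), when Stx18 had the smallest p of the members. The log2 difference of Stx1a between days 21 and 7 was 0.56 ± 0.14 (SE), 0.42 with that covariate, and 0.40 without that library. It did not pass in any of the 3 fits (limma adjusted p = 0.845, 0.798 and 0.969). Whether cortical tissue had a part in the Stx1a values was not tested. Stx18, a syntaxin of the endoplasmic reticulum, was at 7.78, 8.43 and 9.33 FPKM on day 1 and at 9.70, 10.2 and 10.2 FPKM on day 21 (limma adjusted p = 0.786 over the 3 days).

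In amphetamine animals 0 members passed (0% of all tested genes) and 10 had an unadjusted p under 0.05 (11.2% of all genes). Sv2b had the smallest p: its 3 animals of day 21, at 32.6, 40.3 and 43.0 FPKM, all lay above those of day 1, and the log2 difference between these days was 0.52 ± 0.12 (SE, with a limma adjusted p of 0.371 for that pair of days and 0.324 over the 3 days). Syt14, a synaptotagmin without calcium binding, was at 5.42, 5.99 and 4.26 FPKM on day 1, 5.22, 6.22 and 6.31 FPKM on day 7 and 5.10, 3.28 and 3.04 FPKM on day 21 (limma adjusted p = 0.329). Unc13a was at 26.9, 26.3 and 29.8 FPKM on day 7 and at 22.5, 25.5 and 23.1 FPKM on day 21, which did not overlap (limma adjusted p = 0.356 over the 3 days). These comparisons share groups with those between treatments, so that a high or low group enters several of them.

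Other genes of the vesicle cycle were read from a separate list. Of 72 listed genes for fusion and priming factors, active zone scaffolds, vesicle transporters and the proton pump, endocytic proteins and other vesicle proteins, 69 were tested and 0 passed on any day or over the 3 days, beside 0.00716%, 0.0215%, 0% and 0.122% of all tested genes. Of these 69, 39 were higher on day 1, 32 on day 7, 19 on day 21 and 27 over the 3 days, beside 64%, 51.5%, 42.7% and 55.6% of all tested genes. The medians were 0.017, −0.0098, −0.050 and −0.015, beside 0.047, 0.0036, −0.020 and 0.0080 over all genes. The day 1 direction turned with the scaling, to 28 of 69 higher with median-of-ratios scaling and with quantile normalization, and on day 21 these gave 22 and 28 of 69. The day 1 medians of the 69 genes were then −0.035 and −0.031, beside 0 and 0.00064 over all genes. Rph3a, which encodes the RAB3 effector rabphilin, was at 50.9, 56.7 and 47.9 FPKM with saline and at 42.0, 37.4 and 41.3 FPKM with amphetamine on day 21, apart, with −0.36 ± 0.097 (SE; limma adjusted p = 0.769). Rimbp2, a RIM-binding scaffold gene, had −0.15 ± 0.060 (limma adjusted p = 0.851) and Baiap3, a MUNC13 relative of dense-core vesicle release, 0.42 ± 0.17 (limma adjusted p = 0.865) over the 3 days. Lin7a (0.29 on day 21), Picalm and Sh3gl3 (−0.096 and −0.17 on day 7), and Sh3gl1 (0.24 on day 1) had the other smallest p in those comparisons and did not pass.

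A dissected striatum can hold neighbouring tissue. Each gene's slope on the level of a marker list was fitted across the 18 libraries after group means were taken out. On the cortical level 0 members had a slope past the threshold, beside 0.0787% of all tested genes, and Sv2b had the smallest p among the members, with a slope of 0.21 ± 0.088 (SE; limma adjusted p = 0.941). The slopes of Syt17 (0.36), Syt13 (0.27), Rims3 (0.22), Sv2c (0.18) and Stx1a (0.18) were the other largest rising ones, and those of Vamp1 (−0.46), Rab37 (−0.26) and Vamp8 (−0.24) the largest falling ones, and none passed. Slopes on the other 6 lists were added after the data had been seen.

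On the oligodendrocyte level 3 of 86 members passed, 3.49%, which is near the 3.78% of all tested genes. They were Cplx1, with 0.52 ± 0.065 log2 units per unit of the marker level (SE; limma adjusted p = 0.000493), Rab31, a GTPase of endosomal sorting, with 0.58 ± 0.11 (limma adjusted p = 0.00818), and Rab37, with 0.80 ± 0.18 (limma adjusted p = 0.0225). Cplx1 was at 143.7 FPKM in saline replicate 1 of day 1, where the oligodendrocyte marker Mbp was at 575.1 FPKM, and at 213.8 FPKM in amphetamine replicate 3 of day 1, where Mbp was at 1486 FPKM. Cplx2 was not among the genes that passed. All 7 oligodendrocyte markers were detected, and their summed FPKM ran from 1310 to 2280 with saline and from 1800 to 2950 with amphetamine on day 1, from 1220 to 1900 and from 1170 to 2090 on day 7, and from 1450 to 2060 and from 1490 to 1810 on day 21. Without the 2 libraries farthest from the median marker level, Cplx1 passed with a slope of 0.59 (limma adjusted p = 0.0063). The slopes of Rab31, 0.55, and Rab37, 0.79, were nearly as large as over all libraries and did not pass (limma adjusted p = 0.125 and 0.0899), while Syt2 did, so that 2 members passed beside 1.44% of all tested genes. Rab37 also missed the threshold without saline replicate 1 of day 7 (0.77, limma adjusted p = 0.0819) or amphetamine replicate 3 of day 7 (0.64, limma adjusted p = 0.0903).

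Syt13, a synaptotagmin without calcium binding, was the member that passed on the striatal level, where 1.79% of all tested genes did. It also passed on the level of 5 thalamic and other subcortical glutamatergic markers, where 0.651% did. These markers were low, with summed FPKM from 5.18 to 13.3 between libraries, and Slc17a6 ran from 0.0488 to 1.77 FPKM. They did not move together: Tcf7l2 and Calb2 were highest in amphetamine replicate 2 of day 7, where Lef1 was at 1.05 FPKM. Lef1 was highest in saline replicate 2 of day 7, at 2.38 FPKM. The slope of Syt13 was −2.47 ± 0.44 on the striatal level (limma adjusted p = 0.0162) and 1.15 ± 0.16 on the subcortical level (limma adjusted p = 0.00553). The striatal level spanned only 8.13 to 8.43. These levels ran largely opposite to each other, so the 2 slopes are not separate results. Saline replicate 1 of day 7 was at 8.43 and 0.938, and amphetamine replicate 2 of day 7 at 8.13 and 1.79. Saline replicate 1 of day 1 departed from this, at 8.13 and 1.35. Syt13 ran from 6.45 FPKM in amphetamine replicate 3 of day 21 to 15.7 FPKM in saline replicate 1 of day 21. Without the 2 libraries farthest from the median its subcortical slope was 1.4 and did not pass (limma adjusted p = 0.0704), where 0.0501% of all tested genes did. Its striatal slope did not pass without amphetamine replicate 2 of day 7 (limma adjusted p = 0.0576), saline replicate 1 of day 21 (0.0618 in limma) or saline replicate 2 of day 21 (0.0521 in limma), with slopes of −2.50, −2.37 and −2.45 that lay near that over all libraries. On the choroid plexus, astrocyte and microglia levels 0 members passed, beside 0.00716%, 0.114% and 0% of all tested genes.

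**Figure D4:**
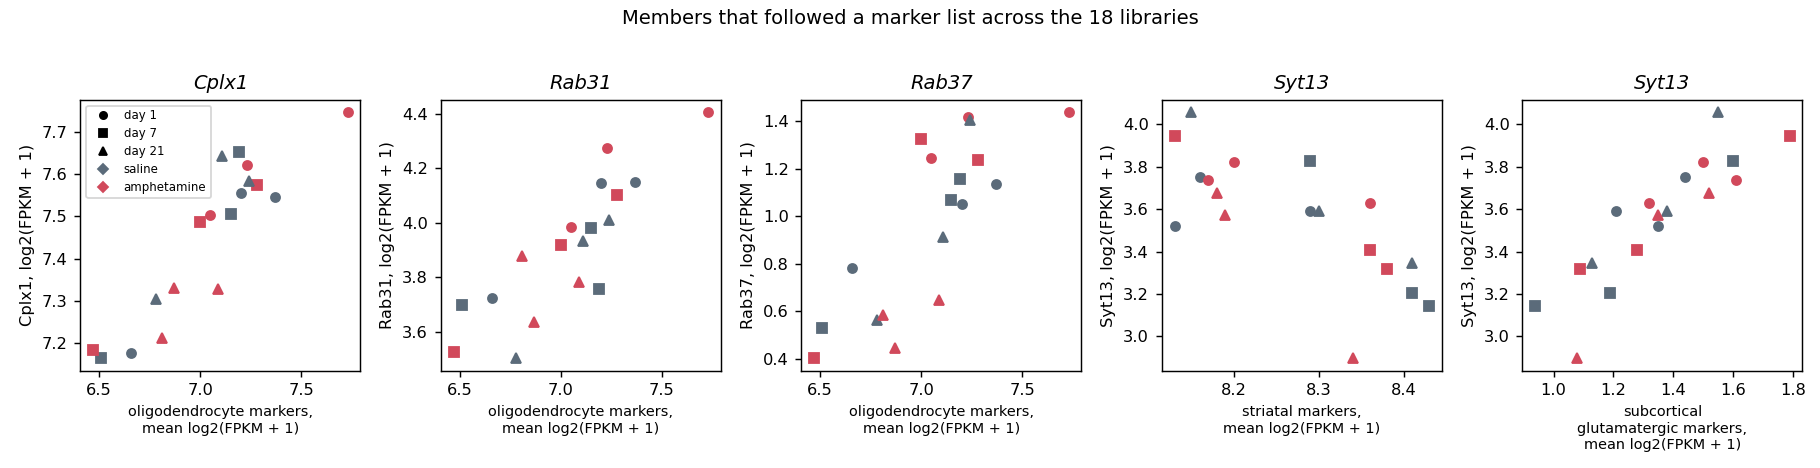
Each point is 1 library, with the level of a marker list on the horizontal axis and that of the gene on the vertical axis, both as log2(FPKM + 1), shaped by day and coloured by treatment. Cplx1, Rab31 and Rab37 rise with the oligodendrocyte level, and Syt13 falls with the striatal level and rises with the subcortical glutamatergic level.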

How the data were processed

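The deposited table held FPKM made by the authors for 29942 gene names and 18 libraries (0 columns of other samples). Bowtie and the build mm9 are named per the submitters' processing notes. The sources used here name no versions, quantifying program, annotation or strand setting, and reads of overlapping or antisense genes may therefore be mixed. The promoter windows are from another build and were matched by symbol.

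FPKM are not counts, so values were tested as log2(FPKM + 1), which understates the differences of low genes, for 13975 genes with a mean of at least 1 FPKM. The 18 libraries entered a single model in limma (version 3.58.1) under R (version 4.3.3), with 1 mean for each of 6 groups and a mean-variance trend (12 residual and 2.26 prior degrees of freedom). Tests were two-sided, adjusted by the Benjamini-Hochberg method over all tested genes in each comparison, with a threshold of 0.05. There were 7 comparisons. Slopes on marker levels used the same fit with the level as a covariate. The scripts were tested on simulated data. Figures were drawn with matplotlib (version 3.10.9).

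Members, roles, marker and pathway lists were chosen with earlier results of these data known. Genes were named by a rule: members past the threshold or with the 3 smallest p of a comparison, the most abundant of each family, a list of release genes, those nearest the minimum, the most and least variable, the largest cortical slopes, and 2 pathway genes per comparison. A few genes that the rule names are counted but not reported singly or drawn here. Alternatives were another pseudocount (0.1), a minimum of 5 FPKM and no filter, quantile normalization, median-of-ratios scaling, sample quality weights, a block for the replicate number, the cortical level as a covariate, single days, and each library left out. Relative depth and the oligodendrocyte level as covariates, and leaving out the 3 libraries of highest cortical level, were added after the data were seen.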

Additional observations from a re-analysis of the deposited data

How the results depend on the processing

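Over 32 settings, 0 members passed the threshold in any of the 7 comparisons between treatments or days, and the smallest adjusted p (limma, sample quality weights) was 0.109, for Synj2bp between days in amphetamine animals. Leaving out each of the 18 libraries in turn gave 0 members in each comparison. The median log2 difference of the members on day 1, 0.026, was −0.020 with median-of-ratios scaling and −0.021 with quantile normalization, and 0.0096 to 0.034 with 1 library left out. The day 1 median of all tested genes, 0.047, was 0 and 0.00064 with these 2 scalings. On day 7 the members' median, 0.0054, was −0.0031 with quantile normalization and −0.011 with the relative depth as a covariate, and over the 3 days it went from −0.0082 to −0.020 with median-of-ratios scaling, −0.016 with quantile normalization and −0.023 with the depth covariate. In the same settings the day 7 median of all tested genes, 0.0036, was −0.0047 and −0.0081. Their median over the 3 days, 0.0080, was −0.0025, −0.0026 and −0.0069. The other medians with 1 library left out ran from −0.024 to 0.034 on day 7, from −0.049 to −0.021 on day 21 and from −0.017 to 0.014 over the 3 days. The count of members with a slope on the striatal level, 1, was 2 without the 2 libraries farthest from the median (Stxbp5 and Syt13), 2 with median-of-ratios scaling (Syt13 and Syt17), and 0 to 3 with 1 library left out: 0 without saline replicate 1 or 2 of day 21, 3 without saline replicate 1 of day 1. The share of all tested genes with a striatal slope, 1.79%, was 0.572% without the 2 farthest libraries, 2.43% with median-of-ratios scaling and 0.623% to 2.93% with 1 library left out. On the subcortical level the count, 1, was 0 without the 2 farthest libraries and 1 to 2 with 1 library left out, beside 0.0501% and 0.0859% to 0.894% of all tested genes. On the oligodendrocyte level the count, 3, was 2 to 5 with 1 library left out, beside 2.1% to 4.41% of all tested genes. The labels do not say that replicate numbers pair the animals. Residuals of libraries of different groups with the same number correlated by 0.021 on average (45 pairs, −0.13 to 0.17, 7 of them over 0.1) and those with different numbers by −0.010 (90 pairs, 4 over 0.1). The best match of each library was sought among the libraries of the other groups, 5 of which carry its number, and 10 of 18 libraries correlated best with one of these. Residuals were taken around group means, so these averages are not independent, and they cannot show whether the numbers mark a shared batch. The main fit used no pairing because the labels give none. With the replicate number as a block, 0 members passed in any comparison. The cause of these shifts was not tested. Unknown absolute depth leaves no counting error for the low members, such as Rab37.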

Other observations

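The 12 matching genes below the minimum include forms that other tissues use. Cplx4, the retinal complexin, had a mean of 0.0222 FPKM, beside 0.552 FPKM for Cplx3. Stx11 and Unc13d, which serve granule release in cytotoxic lymphocytes, had means of 0.0688 and 0.173 FPKM, and Rab38, a GTPase of melanosome formation, 0.038 FPKM. Syt8, Syt15, Stx19 and Syngr4 had means of 0.0065, 0.0858, 0.0929 and 0.0507 FPKM, and Rab39 had 0.534 FPKM. These genes were not tested, and their counting error is unknown without the depth.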
